A study of Mus musculus with 2 samples.

Results

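The mouse genes Cxcl1, Cxcl2, Cxcl3, Cxcl5, Cxcl9, Cxcl10, Cxcl12, Cxcl13, Cxcl14 and Cxcl16, which encode CXC chemokine ligands, were examined in colonies/organoids grown from mammary basal cells with or without tumor necrosis factor α (TNF-α). These 10 genes were chosen by name from the 49492 genes of the count table, and they were selected with their measured values in both libraries already known. Their levels and ratios are therefore given as a description, without a test. All 10 passed the filter on low values, 10 counts or more over the pair of libraries, as did 20771 genes in all.

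The basal cells, the outer and contractile layer of the mammary ducts, had been sorted by flow cytometry as lin-, CD24+ and CD29hi cells from glands of adult wild type female mice. They were grown in 3D in matrix gel in DMEM/F12 with EGF and ITS, a supplement of insulin, transferrin and selenium, and this medium was common to both groups. The control received no further addition, and the other group received recombinant mouse TNF-α at 10 ng/mL for 10 days, to find genes that this macrophage cytokine changes in basal colonies. That time is stated for the TNF-α culture, and the control was taken to have been cultured as long. Each group was 1 RNA-seq library, and the sources used here do not give how many animals were pooled in it.

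With 1 library per group there was no replicate check, and no p-value is given. Every interval is a 95% interval that covers counting error only. Totals were 44462275 counts in the control and 53487087 with TNF-α. Levels are counts scaled to library size (CPM), and RPKM is the same level per kilobase of summed exon length, the scale used wherever genes are compared with each other. Ratios are log2 ratios of CPM, TNF-α over control, with a prior count of 2, and a gene is called higher or lower here when it passes 2-fold. The prior draws ratios from few counts toward 0, and single-gene fold values are taken from these ratios. Where a count is low, the fold is thus smaller than the quotient of the printed CPM. The intervals of the ratios were computed without the prior. The median log2 ratio over all genes compared was 0.0038, and most genes lay between -1.20 and 1.42, their 5th and 95th percentiles. Of the 8 basal markers, Krt14 had 5155 CPM in the control and 4871 CPM with TNF-α, and Krt5 had 2456 and 2752 CPM. The luminal keratin Krt8 had 1213 and 1132 CPM, the highest log2 ratio of the 9 luminal markers. None of those 9 was above 0, and their median log2 ratio was -0.95, beside -0.14 for the 8 basal markers. The basal label names the cells that were sorted and sown, and the cell make-up of these libraries is not known. In the paper's flow cytometry of its co-culture experiment, control colonies grown from basal cells were mostly luminal. The paper also reported a larger basal proportion with TNF-α.

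CXC chemokines are small secreted proteins that draw leukocytes along gradients held on heparan sulfate of cell surfaces and matrix, and most act through G protein-coupled receptors of the Cxcr group. Ligands with the ELR motif before the first cysteines attract neutrophils through Cxcr2, Cxcl9 and Cxcl10 attract T cells and natural killer cells through Cxcr3, and Cxcl12 and Cxcl13 guide cells through Cxcr4 and Cxcr5. Many of the inflammatory members are textbook targets of NF-κB and of interferon signalling, and epithelial cells of barrier and gland tissues are among their sources.

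With TNF-α, 3 of the 10 ligands were more than 2-fold higher (Cxcl9, Cxcl10 and Cxcl3), 2 were more than 2-fold lower (Cxcl13 and Cxcl14), and 5 were within 2-fold of the control. Over all genes compared, 8.56% were more than 2-fold higher and 6.62% more than 2-fold lower. Since the members were picked with these values in view, nothing is read from the comparison of those shares. The log2 ratios ran from -4.38 for Cxcl13 to 4.34 for Cxcl9 with a median of 0.69, and 6 of the 10 were above 0. Nearest to the 2-fold limit were Cxcl3, past it with a log2 ratio of 1.22 from few counts, and Cxcl2, short of it with 0.98.

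**Figure D1:**
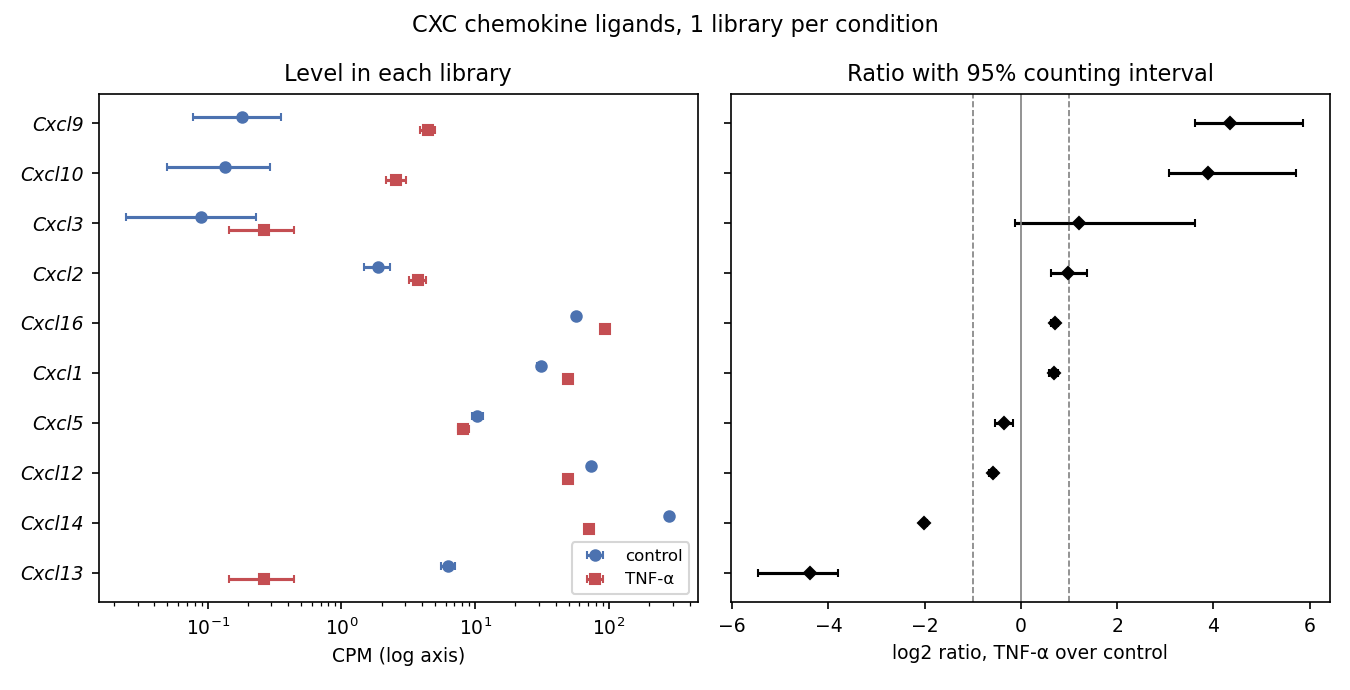
Left, level of each CXC ligand in the control (circles) and TNF-α (squares) library in CPM on a log axis, with exact Poisson 95% intervals. Right, log2 ratio of TNF-α over control with its 95% counting interval, dashed lines at 2-fold, and 1 library per condition: Cxcl9 and Cxcl10 lie far above the upper line at 4.34 and 3.88, Cxcl13 and Cxcl14 lie below the lower line at -4.38 and -2.01, and the interval of Cxcl3 crosses 0.

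A stricter reading of the same contrast asks for the whole counting interval to lie beyond 2-fold. Cxcl9 and Cxcl10 met this on the higher side, as did 3.74% of all genes, and Cxcl13 and Cxcl14 met it on the lower side, as did 2.7% of all genes. At a 4-fold limit the higher members were again Cxcl9 and Cxcl10 and the lower members Cxcl13 and Cxcl14, beside 2.6% and 1.65% of all genes. At a 1.5-fold limit 6 members were higher (Cxcl1, Cxcl2, Cxcl3, Cxcl9, Cxcl10 and Cxcl16) and 3 were lower (Cxcl12, Cxcl13 and Cxcl14), beside 15.5% and 13.7% of all genes. Cxcl5 was within every limit used.

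Cxcl9 and Cxcl10 encode ligands of Cxcr3 and are classical interferon-induced chemokines. Cxcl9 (chromosome 5, 92321347 to 92328079, minus strand, GRCm38) had 8 counts in the control and 236 with TNF-α. This is a level of 0.18 CPM (0.0775 to 0.354) against 4.42 CPM (3.88 to 5.02), and the intervals of the libraries do not overlap. The log2 ratio was 4.34 (3.62 to 5.85), 20.3-fold higher with the prior count, and 99.9% of all genes compared had a lower ratio. Cxcl10 (chromosome 5, 92346638 to 92348889, minus strand) had 6 counts in the control and 136 with TNF-α. Its level was 0.135 CPM (0.0494 to 0.293) against 2.55 CPM (2.14 to 3.01), again without overlap of the intervals. The log2 ratio was 3.88 (3.08 to 5.71), 14.8-fold higher with the prior count. Both control counts were near the floor of 3 counts, so the size of either ratio is loosely bounded from above while its lower bound is over 3 on the log2 scale. With counts divided by 2, the lower bound was 3.23 for Cxcl9 and 2.63 for Cxcl10. Of the 50-base windows of the Cxcl9 transcript, 0.6% also occur in 119 other genes, and reads within them can be placed elsewhere. Cxcl10 shares 133 exon bases with Art3 on the opposite strand, and the strand setting of the counting is not given in the sources used here. Art3 had 92 and 195 counts, a log2 ratio of 0.81 (0.46 to 1.20). Cxcl11, the remaining Cxcr3 ligand, had 0 counts in the control and 4 with TNF-α and was below the filter.

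The genes of this pair lie side by side on chromosome 5, within 27.5 kb, and the 250 bases before their RefSeq starts (GRCm38.p6) are printed because the members with the highest ratios share a motif there. Capitals mark motif matches on either strand. In Cxcl9 (chr5:92328080-92328329, minus strand) they mark TATAAA and then the core of the interferon-stimulated response element, GAAANNGAA. In Cxcl10 (chr5:92348890-92349139, minus strand) they mark, in order, that core, a κB match, a second κB match and the AP-1 motif TGANTCA.
Cxcl9: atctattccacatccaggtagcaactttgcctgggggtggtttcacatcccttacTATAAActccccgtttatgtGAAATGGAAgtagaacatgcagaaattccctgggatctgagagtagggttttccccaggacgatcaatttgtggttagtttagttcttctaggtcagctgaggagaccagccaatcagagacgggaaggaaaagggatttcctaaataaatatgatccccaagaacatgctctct
Cxcl10: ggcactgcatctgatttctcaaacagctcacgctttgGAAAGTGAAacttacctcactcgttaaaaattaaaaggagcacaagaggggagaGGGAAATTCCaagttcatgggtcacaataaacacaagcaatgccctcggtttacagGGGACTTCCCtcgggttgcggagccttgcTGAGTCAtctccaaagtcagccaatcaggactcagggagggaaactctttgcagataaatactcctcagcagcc
The GAAANNGAA core lay at positions -175 to -167 in Cxcl9 and -213 to -205 in Cxcl10, counted from the base before the start as -1. It was found on either strand in 8.56% of all 32851 RefSeq windows that ran from 250 bases before to 50 bases after a start. The κB consensus, which NF-κB dimers bind, was matched at -159 to -150 and -103 to -94 in Cxcl10 and was not matched in the window of Cxcl9. The AP-1 motif lay at -74 to -68 in Cxcl10 and, after the start, at 32 to 38 in Cxcl9. A match is a description of the letters in the window, and binding was not measured.

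The ELR ligands Cxcl1, Cxcl2, Cxcl3 and Cxcl5, which attract neutrophils, had ratios on both sides of 0. Cxcl1 (chromosome 5, 90891241 to 90893115, plus strand), the most abundant of them per kilobase in both libraries, had 1372 counts in the control and 2632 with TNF-α, or 30.8 CPM (29.2 to 32.5) against 49.3 CPM (47.5 to 51.2). Its log2 ratio of 0.68 (0.59 to 0.78) corresponds to a 1.6-fold higher level, under the 2-fold limit. Cxcl2 (chromosome 5, 90903871 to 90905938, plus strand) had 83 and 198 counts, or 1.86 CPM (1.48 to 2.31) against 3.71 CPM (3.21 to 4.26). The log2 ratio of 0.98 (0.62 to 1.38) was the highest of any member within 2-fold. Cxcl3 (chromosome 5, 90786103 to 90789600, plus strand) had 4 and 14 counts, or 0.0898 CPM (0.0245 to 0.23) against 0.262 CPM (0.143 to 0.44), and these intervals overlap. Although its log2 ratio of 1.22 passed 2-fold, the interval from -0.12 to 3.61 includes 0. Cxcl5 (chromosome 5, 90759360 to 90761624, plus strand) went the other way, with 463 and 435 counts, or 10.4 CPM (9.46 to 11.4) against 8.15 CPM (7.4 to 8.96). The log2 ratio was -0.35 (-0.54 to -0.16), within 2-fold.

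Summed over these 4 ligands, the level was 22.9 RPKM in the control and 32.6 RPKM with TNF-α, a 1.42-fold higher sum, nearly all of it Cxcl1 and Cxcl5. The direction holds for these 4 members and not for the ELR group as a whole. With Cxcl15 and Ppbp, ELR ligands outside the members, the sum was 59.9 RPKM in the control and 38.9 RPKM with TNF-α, a log2 ratio of -0.62, and Cxcl15 alone was at 36.9 and 6.26 RPKM. Cxcl2 and Cxcl3 share 61 windows of 50 bases of their transcripts, 3.37% of the windows of Cxcl2 and 6.31% of those of Cxcl3, and reads within them can be placed on either gene. The 4 and 14 counts of Cxcl3 are therefore uncertain beyond their counting error. Of the windows of Cxcl5, 3.08% also occur in 9 other genes. Cxcl1 had no shared window.

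Cxcl1, Cxcl2 and Cxcl3 had the same 11-base κB match in the bases before their starts, and it is in capitals here. The windows are chr5:90890995-90891244 for Cxcl1, chr5:90903649-90903898 for Cxcl2 and chr5:90785851-90786100 for Cxcl3, all on the plus strand, and the later capitals in Cxcl3 mark TATAAA.
Cxcl1: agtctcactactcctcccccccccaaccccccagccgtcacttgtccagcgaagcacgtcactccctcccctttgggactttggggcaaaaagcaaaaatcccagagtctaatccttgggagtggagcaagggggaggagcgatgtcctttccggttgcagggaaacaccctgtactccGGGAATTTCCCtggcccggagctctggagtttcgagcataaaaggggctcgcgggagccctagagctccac
Cxcl2: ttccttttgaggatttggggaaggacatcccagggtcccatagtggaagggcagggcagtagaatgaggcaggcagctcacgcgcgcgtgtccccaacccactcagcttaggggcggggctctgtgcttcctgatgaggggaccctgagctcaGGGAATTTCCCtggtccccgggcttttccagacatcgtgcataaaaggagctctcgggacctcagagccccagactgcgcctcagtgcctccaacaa
Cxcl3: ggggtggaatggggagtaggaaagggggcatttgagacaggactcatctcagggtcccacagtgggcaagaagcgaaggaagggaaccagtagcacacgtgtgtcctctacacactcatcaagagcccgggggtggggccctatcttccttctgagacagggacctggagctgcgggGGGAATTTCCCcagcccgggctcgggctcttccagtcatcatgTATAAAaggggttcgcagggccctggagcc
The match GGGAATTTCCC ended at -61 in Cxcl1, -87 in Cxcl2 and -63 in Cxcl3. A κB match was present in 4 of the 8 members with a RefSeq window (Cxcl1, Cxcl2, Cxcl3 and Cxcl10) and in 4.51% of all windows. These 4 genes had log2 ratios from 0.68 to 3.88, and the 4 windows without a match (Cxcl9, Cxcl12, Cxcl13 and Cxcl14) belonged to genes with ratios from -4.38 to 4.34. The bases before the start were 58.7% identical between Cxcl2 and Cxcl3, 52.7% between Cxcl1 and Cxcl3 and 52.0% between Cxcl1 and Cxcl2. For comparison, all other pairs of the 8 windows were 44.9% to 52.1% identical, the highest being Cxcl12 with Cxcl14. The 52.0% of Cxcl1 and Cxcl2 is within that range, and the 52.7% of Cxcl1 and Cxcl3 is close to it. Cxcl5 and Cxcl16 have no promoter sequence shown.

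**Figure D2:**
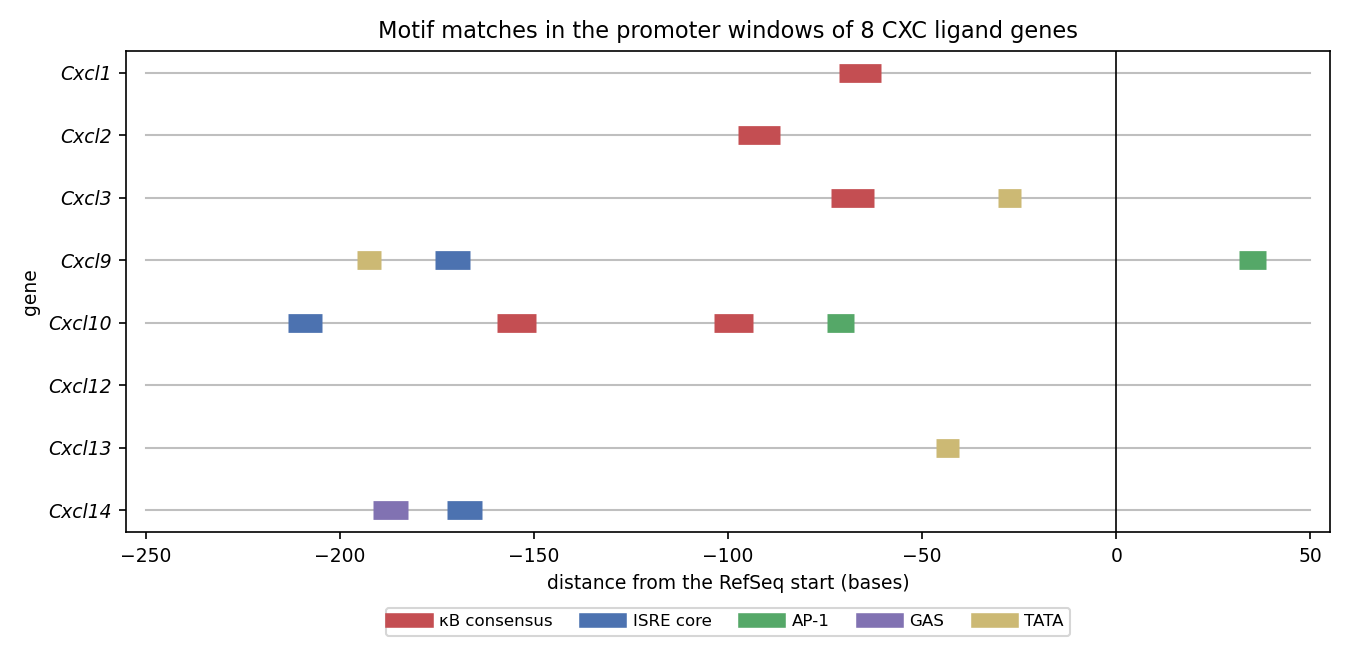
Motif matches on either strand in the RefSeq promoter windows of 8 CXC ligand genes, with the distance from the start in bases on the horizontal axis and 1 line per gene. Colours mark the κB consensus, the ISRE core, AP-1, GAS and TATA motifs: κB matches lie within -159 to -61 in Cxcl1, Cxcl2, Cxcl3 and Cxcl10, and the window of Cxcl12 held none of the 5 motifs.

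The messages of ELR ligands are known to be short-lived, since AU-rich elements in their 3′ UTRs bind decay factors such as Zfp36. The pentamer ATTTA occurred 7 times in the 3′ UTR of Cxcl1, 11 times in that of Cxcl2 and 5 times each in those of Cxcl3 and Cxcl5. Per kilobase this is 11.8 for Cxcl1, 7.36 for Cxcl2, 7.75 for Cxcl3 and 4.5 for Cxcl5, where the median over 19737 genes was 1.35. The longer element TTATTTATT was present in Cxcl1 (2), Cxcl2 (4) and Cxcl3 (1) and in no other member, while 8.0% of all genes had it. Of the members outside the ELR group, Cxcl14 had no ATTTA, and Cxcl9 and Cxcl10 had 3 each. These are properties of the GENCODE transcripts, and the stability of the messages was not measured.

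Cxcl13 encodes the chemokine that draws B cells into follicles through Cxcr5, and Cxcl14 encodes a ligand made by many epithelia whose receptor is debated. Cxcl13 (chromosome 5, 95956951 to 95961068, plus strand) had 279 counts in the control and 14 with TNF-α, the lowest ratio of any member. Its level was 6.26 CPM (5.55 to 7.04) against 0.262 CPM (0.143 to 0.44), without overlap of the intervals. The log2 ratio was -4.38 (-5.47 to -3.81), 20.8-fold lower with the prior count, and 0.0385% of all genes compared had a lower ratio. Cxcl14 (chromosome 13, 56288647 to 56296551, minus strand) had 12627 and 3764 counts, or 283 CPM (278 to 288) against 70.5 CPM (68.3 to 72.8). Its log2 ratio of -2.01 (-2.06 to -1.95) was a 4.01-fold lower level and rested on the largest counts of the group. Neither gene shared exon bases with another gene or a 50-base transcript window.

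The 250 bases before the starts of these lower members are shown for comparison with the higher ones. Capitals mark TATAAA in Cxcl13 (chr5:95956689-95956938, plus strand). In Cxcl14 (chr13:56296552-56296801, minus strand) they mark TTCNNNGAA, the GAS motif of STAT factors, followed by the GAAANNGAA core.
Cxcl13: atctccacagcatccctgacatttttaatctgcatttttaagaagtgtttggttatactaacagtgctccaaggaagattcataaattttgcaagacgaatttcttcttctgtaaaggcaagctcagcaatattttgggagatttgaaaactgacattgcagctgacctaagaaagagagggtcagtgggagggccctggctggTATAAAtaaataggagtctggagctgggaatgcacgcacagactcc
Cxcl14: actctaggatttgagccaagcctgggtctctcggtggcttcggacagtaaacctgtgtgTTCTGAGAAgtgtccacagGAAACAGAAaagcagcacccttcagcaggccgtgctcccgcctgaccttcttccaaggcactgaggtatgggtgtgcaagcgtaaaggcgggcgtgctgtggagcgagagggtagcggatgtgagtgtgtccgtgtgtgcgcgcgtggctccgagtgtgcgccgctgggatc
The GAAANNGAA core thus occurred at -172 to -164 of a gene that was 4.01-fold lower as well as in Cxcl9 and Cxcl10. The GAS motif at -191 to -183 was in Cxcl14 alone of the 8 member windows and in 8.3% of all windows. TATAAA was in 13.6% of all windows, and in Cxcl3, Cxcl9 and Cxcl13 of the members, at -46 to -41 in Cxcl13. The AP-1 motif was in 7.81% of all windows.

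Cxcl12 and Cxcl16 were well covered in both libraries, and neither passed 2-fold. Cxcl12 (chromosome 6, 117168535 to 117181367, plus strand), which holds cells in niches through Cxcr4, had 3284 counts in the control and 2618 with TNF-α. Its level was 73.7 CPM (71.2 to 76.3) against 49.1 CPM (47.2 to 51.0), with a log2 ratio of -0.59 (-0.66 to -0.51). Cxcl16 (chromosome 11, 70453983 to 70459984, minus strand), a chemokine made as a transmembrane protein that binds Cxcr6, had 2546 and 4954 counts. The level of 57.1 CPM (54.9 to 59.4) against 92.8 CPM (90.3 to 95.5) gave a log2 ratio of 0.70 (0.63 to 0.77). Both intervals exclude 0 and both lie within 2-fold. Cxcl16 shares 552 exon bases with Zmynd15 on the opposite strand and 19.0% of its transcript windows, and Zmynd15 had 1102 and 1967 counts, so the division of reads between these genes is uncertain.

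**Figure D3:**
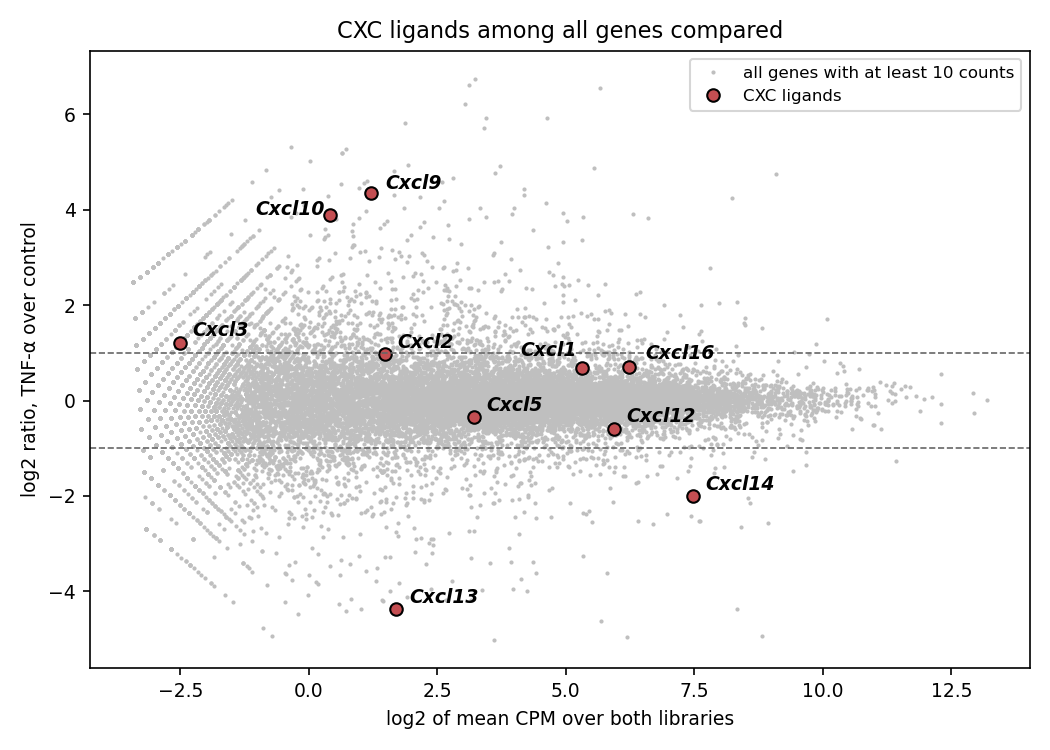
Log2 ratio of TNF-α over control against log2 of the mean CPM of both libraries, for all genes with at least 10 counts (grey) and the 10 CXC ligands (red), with dashed lines at 2-fold. Cxcl9, Cxcl10 and Cxcl13 lie at the edges of the cloud at low to middle levels, Cxcl14 at 283 and 70.5 CPM lies below it at a high level, and Cxcl3 lies in the region of few counts where ratios of all genes spread widely.

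Per kilobase of summed exon length, Cxcl14 had the highest level of the 10 in both libraries, 155 RPKM in the control and 38.7 RPKM with TNF-α. Cxcl16 followed with 18.9 and 30.7 RPKM, Cxcl1 with 16.4 and 26.3 RPKM, Cxcl12 with 9.01 and 6.0 RPKM and Cxcl5 with 5.58 and 4.38 RPKM. In the control, the counting interval of Cxcl5 overlapped that of Cxcl13 (5.44 RPKM). The intervals of Cxcl10, Cxcl9 and Cxcl3 (0.0598, 0.0595 and 0.0257 RPKM) each overlapped that of the neighbour in this order. With TNF-α the same held for Cxcl2, Cxcl9 and Cxcl10 (1.79, 1.47 and 1.13 RPKM) and for Cxcl13 and Cxcl3 (0.228 and 0.075 RPKM). An overlap of intervals does not show that levels are equal, and these pairs were not tested. Cxcl13 moved from the sixth place to the ninth, while Cxcl9 and Cxcl10 came to stand above it.

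Summed over the 10 ligands, the level was 212 RPKM in the control and 111 RPKM with TNF-α, a log2 ratio of -0.93. Cxcl14 made up 73.4% of this sum in the control and 34.9% with TNF-α, and the direction of the sum rested on it. Without Cxcl14 the sum of the other 9 was 56.4 RPKM in the control and 72.1 RPKM with TNF-α, a log2 ratio of 0.35. The share of Cxcl16 was 8.93% and 27.7%, that of Cxcl1 7.75% and 23.7%, and that of the 4 ELR members together 10.8% and 29.4%. Cxcl9 and Cxcl10, with the highest ratios, held 1.32% and 1.02% of the sum with TNF-α. The order at the top with TNF-α depended on the length used. By the longest coding transcript of each gene Cxcl1 led with 35.8%, before Cxcl14 with 26.7%, and by the shortest it led with 29.9% against 27.8%. In the control Cxcl14 led by either length, with 66.0% and 64.4%. The order below it in the control also depended on the length. Next after Cxcl14 came Cxcl1 with 13.75% by the longest and Cxcl12 with 13.1% by the shortest coding transcript, in place of Cxcl16.

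**Figure D4:**
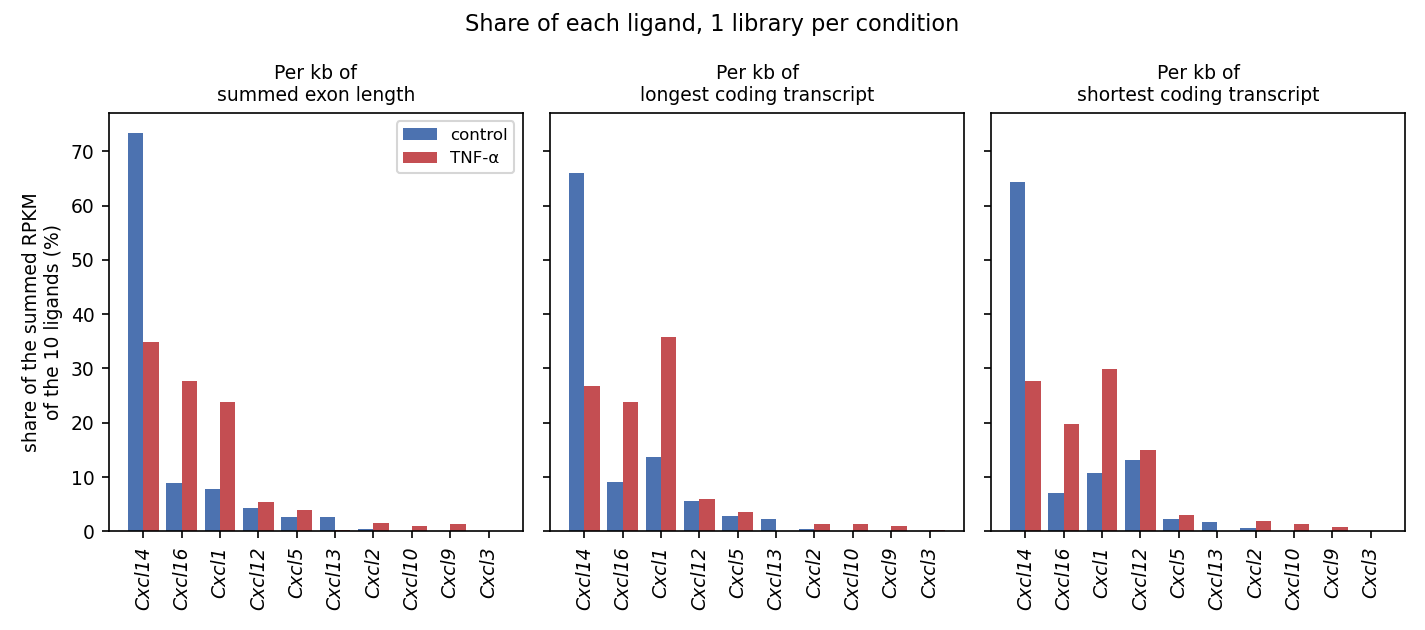
Share of each CXC ligand in the summed RPKM of the 10 ligands (%), in the control (blue) and TNF-α (red) library, per kilobase of summed exon length (left), of the longest (middle) and of the shortest (right) coding transcript, with 1 library per condition. Cxcl14 fills 64.4% to 73.4% of the control sum in all 3 panels, and with TNF-α Cxcl14, Cxcl16 and Cxcl1 have shares nearer to each other, Cxcl1 leading in the middle and right panels.

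The 5 other CXC ligand genes listed were mostly scarce. Cxcl15, an ELR ligand best known from the lung and lying between Cxcl3 and Cxcl1, had 3494 counts in the control and 711 with TNF-α, a log2 ratio of -2.55 (-2.68 to -2.44). Cxcl17, a mucosal chemokine, had 201 and 253 counts and a log2 ratio of 0.07 (-0.20 to 0.35). The platelet chemokine genes were at a few counts, Pf4 at 6 and 4 with a log2 ratio of -0.60 (-3.11 to 1.23), and Ppbp at 4 and 2, below the filter. Thus 3 of the 5 were compared, 0 were higher and 1 was lower, beside 8.56% and 6.62% of all genes. Of 8 receptor genes, 3 had enough counts and none was called, too few genes to set against those shares. Cxcr4, the receptor of Cxcl12, had 149 and 248 counts and a log2 ratio of 0.47 (0.18 to 0.78), and Ackr3, which scavenges Cxcl12, had 92 and 98 counts and a log2 ratio of -0.17 (-0.59 to 0.26). Cxcr6, the receptor of Cxcl16, had 14 and 15 counts with a log2 ratio of -0.14 (-1.31 to 1.0). Cxcr2 had 0 counts in the control and 6 with TNF-α, and Cxcr3 and Cxcr5 each had 2 counts in the control and 0 with TNF-α. Cxcr1 and Ackr1 had 0 counts in both libraries, which allows up to 0.0673 CPM in the control and 0.0562 CPM with TNF-α.

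On chromosome 5 the members form neighbourhoods whose genes had different ratios. In the stretch of 147 kb from Cxcl5 to Cxcl2, and 500 kb to either side of it, 19 genes were compared, of which 1 was higher (Cxcl3) and 4 were lower. Within the stretch itself Cxcl15 was more than 2-fold lower while Cxcl1 and Cxcl2, 10.8 kb apart, were at 0.68 and 0.98. Gm43085, next to Cxcl15 on the same strand, was lower as well, with 72 and 16 counts and a log2 ratio of -2.28 (-3.31 to -1.63). The stretch from Cxcl9 to Cxcl11 and its flanks held 24 compared genes, of which 3 were higher and 4 were lower. Over all genes 8.56% were higher and 6.62% lower, and nothing is read from these counts for either stretch. Cxcl9 and Cxcl10 had by far the highest ratios of those 24, and the next was Gm1045, named after its values were seen, with 38 and 101 counts and a log2 ratio of 1.11 (0.60 to 1.73). Cxcl13 lies 3.61 Mb beyond Cxcl10 on the same chromosome, and its ratio had the opposite sign.

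**Figure D5:**
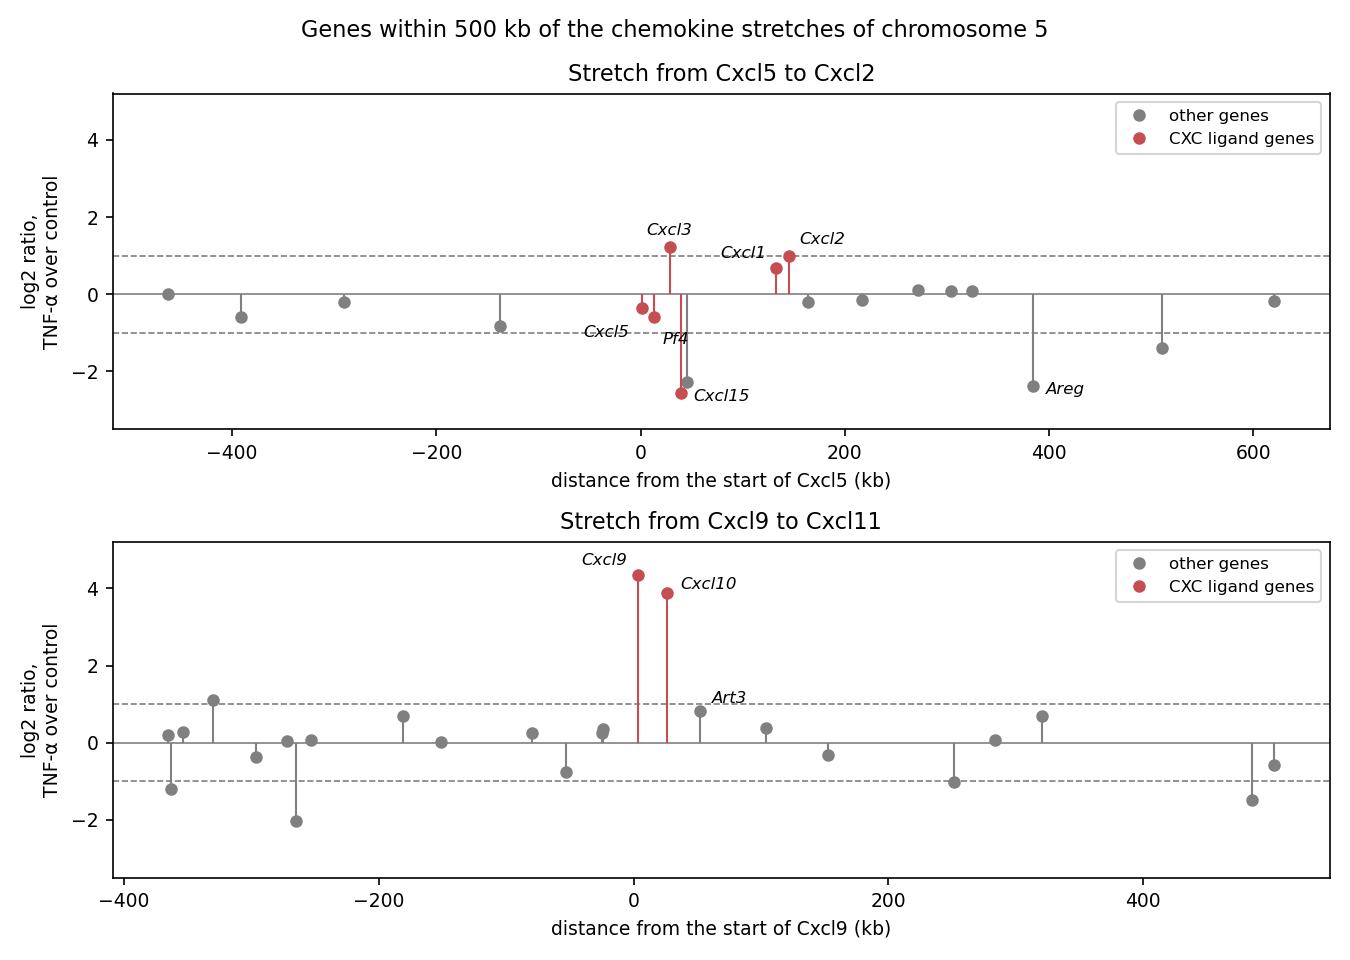
Log2 ratio of TNF-α over control for genes within 500 kb of the stretch from Cxcl5 to Cxcl2 (top) and from Cxcl9 to Cxcl11 (bottom), against the distance from the first gene of the stretch in kb, with dashed lines at 2-fold and CXC ligand genes in red. In the lower panel Cxcl9 and Cxcl10 reach 4.34 and 3.88 while the next gene is at 1.11, and in the upper panel ligand genes lie on both sides of 0, from -2.55 for Cxcl15 to 1.22 for Cxcl3.

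Genes that act before and after these ligands were described from lists, which were chosen with earlier results of these data known. Over all genes compared, 8.56% were higher and 6.62% lower. Nothing is read from setting the list counts, here and below, against these shares. Of 16 genes from TNF receptors to NF-κB, 7 were higher, 0 were lower and 9 were neither, with a median log2 ratio of 0.71 beside 0.0038 for all genes. The TNF receptor Tnfrsf1b was the highest, with 18 and 207 counts and a log2 ratio of 3.14 (2.57 to 4.05), and the other TNF receptor, Tnfrsf1a, was the lowest, with 1729 and 1623 counts and a log2 ratio of -0.35 (-0.45 to -0.25). The inhibitor gene Nfkbia, itself a NF-κB target, had 2156 and 10342 counts and a log2 ratio of 2.0 (1.94 to 2.07). The subunit genes Rela and Nfkb1 had log2 ratios of -0.10 and 0.08. The other subunit genes on the list, Relb, Nfkb2 and Rel, had 1.46 (1.33 to 1.60), 1.27 (1.20 to 1.34) and 0.77 (0.55 to 0.99). Nfkbiz, which encodes a nuclear IκB protein used at some chemokine genes, had a log2 ratio of 0.65 (0.53 to 0.77).

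Of 15 genes from interferons to STAT and IRF factors, 13 were compared, with a median of 0.76. Among them 4 were higher, 0 lower and 9 neither, beside 8.56% higher and 6.62% lower over all genes. Irf7 was the highest, with 198 and 1210 counts and a log2 ratio of 2.34 (2.13 to 2.58), and the kinase gene Tyk2 was the lowest, with a log2 ratio of -0.07 (-0.20 to 0.06). Irf1, a factor that acts at many interferon-induced genes, had 718 and 2923 counts with a log2 ratio of 1.76 (1.65 to 1.89). The interferon genes Ifng and Ifnb1 had 0 counts in both libraries, with the same upper limit as above.

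Of 8 regulators of chemokine mRNA stability, 0 were higher and 0 lower, beside 8.56% and 6.62% of all genes, with a median of 0.05. Their extremes were Zc3h12a, which encodes the endonuclease Regnase-1, with 136 and 301 counts and a log2 ratio of 0.88 (0.59 to 1.19), and Zfp36, with 1574 and 1146 counts and a log2 ratio of -0.72 (-0.83 to -0.61). Of 13 proteases that shed or clip chemokines, 11 were compared, and 4 were higher, 2 lower and 5 neither, with a median of 0.29. They ranged from Mmp3, a matrix metalloproteinase with 46 and 5397 counts and a log2 ratio of 6.56 (6.20 to 7.07), to Mmp2, with 4066 and 1364 counts and a log2 ratio of -1.83 (-1.93 to -1.75). The sheddases of Cxcl16 were within 2-fold, Adam10 at a log2 ratio of 0.04 (-0.01 to 0.09) and Adam17 at 0.55 (0.49 to 0.62). All 10 genes for heparan sulfate proteoglycans and their synthesis were within 2-fold, with a median of 0.03 and a range from -0.42 for Ndst2 to 0.50 for Ext1. Most of all genes compared were within 2-fold as well, so nothing is read from a list without a call.

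Markers of other cells were set beside these values, since in bulk RNA fewer cells of a type and less RNA per cell cannot be told apart. The summed level of 12 leukocyte markers was 19.1 CPM in the control and 15.9 CPM with TNF-α, 0 of the 8 compared were called, their median log2 ratio was -0.36, and Cd3e and Ly6g were at 0 counts in both. More than any other marker, S100a9 made up this sum, with 10.2 and 8.77 CPM. The pan-leukocyte gene Ptprc was the highest, with 26 and 38 counts and a log2 ratio of 0.27 (-0.47 to 1.07), and Cd79a was the lowest, with 6 and 4 counts and a log2 ratio of -0.60 (-3.11 to 1.23). The summed level of 9 luminal markers was 3582 CPM and 2554 CPM, 3 were lower (Pgr the lowest, at -1.54), none was above 0 and the median was -0.95. Basal markers summed to 11771 and 10771 CPM, with 1 of 8 lower (Oxtr, at -1.19), Mylk the highest at 0.18 and a median of -0.14. The epithelial markers Epcam and Cdh1 were at 0.29 and 0.19. Fibroblast markers summed to 528 and 535 CPM with 1 of 7 higher (Dcn, at 1.39) and Col3a1 the lowest at -0.66. The 5 endothelial markers summed to 8.19 and 7.63 CPM with 0 called, from -0.30 for Kdr to 0.22 for Cdh5. The part of any of these marker values, leukocyte ones included, in the ligand results was not tested.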

How the data were processed

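RNA-seq was analysed from 2 libraries of mouse mammary basal colonies/organoids, 1 control and 1 cultured with TNF-α, grouped by their sample titles. The authors deposited 1 table of raw read counts per gene, with exon positions, strand and summed exon length, in the layout of a featureCounts table. Libraries were made with a SMARTER kit and sequenced on a HiSeq X instrument. Per the submitters' processing notes the builds are GRCm38 and mm10, and the aligner, annotation and strand setting are not given in the sources used here.

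TMM scaling in edgeR (version 4.0.16, R 4.3.3) was applied to these deposited counts and gave a ratio of 1.20 between the scaled sizes of TNF-α and control. The log2 ratios have a prior count of 2, and genes needed 10 counts or more in all. A count of 10 is worth 0.224 CPM in the control and 0.187 CPM with TNF-α. Ratio intervals are Clopper-Pearson and CPM intervals exact Poisson, both at 95%, the floor was 3 counts, and the computation was tested on simulated data. Of the 20 member counts, 15 were even, beside 59.1% of all values of genes compared. If both read ends of a fragment were counted singly, the printed intervals would be too narrow. This was not tested, and intervals were also computed with counts divided by 2.

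The members and gene lists were chosen with earlier results of these data known. Named genes are all members, other CXC ligands and receptors, and the highest and lowest gene of each list, besides Irf1, Rela, Nfkb1, Nfkbia, Nfkbiz, Zc3h12a, Adam10 and Adam17. A further gene of the rule is not reported here. Krt5, Krt14, S100a9, Cd3e, Ly6g, Ifng, Ifnb1, Art3, Zmynd15, Gm1045, Areg, Ereg, Epgn and Btc fall outside that rule and were named after their values were seen. So do Relb, Nfkb2, Rel and Gm43085, which were also named afterwards. The κB consensus and the checks of the chromosome 5 neighbours, AU-rich elements and shared windows were also set after the data were seen. Promoter windows are from RefSeq (GRCm38.p6, 8 of 10 members matched), and transcript lengths, 3′ UTRs and shared windows from GENCODE M21. Protein sequences were not used here. Alternatives were total count, DESeq2 (version 1.42.0) and upper quartile scaling, prior counts of 0.5 and 5, no filter and a filter of 1 CPM. Further ones were 1.5-fold and 4-fold limits, the interval limit, halved counts and coding transcript lengths. The TNF-α library was also thinned to the control total. Intervals were computed with scipy 1.17.1 in Python 3.11.15, tables with pandas 2.3.3 and figures with matplotlib 3.10.9.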

Additional observations from a re-analysis of the deposited data

How the results depend on the processing

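With a lone library for each condition none could be left out, so the spread between cultures is unknown and the limits here are those of counting. Of 121 values recomputed under alternatives, 116 stayed within the range set for them, and none of the 88 values for a single ligand changed sign. The range was wide. A count of ligands was in range within 1.5-fold of its main value, so a change between 2 and 3 was in range. A ratio was in range within its own counting error. Part of this was fixed in advance, since a change of filter leaves the ratio of a ligand as it was. Halving all counts changes it mainly through rounding and the prior count. The scalings also differed little, with size ratios of TNF-α over control from 1.197 to 1.205. The count of higher ligands was 6 instead of 3 at a 1.5-fold limit, and it was 2, without Cxcl3, with halved counts, thinning, a prior count of 5, a filter of 1 CPM, a 4-fold limit or the interval limit. The log2 ratio of Cxcl3 ranged from 0.74 to 1.45, that of Cxcl9 from 4.01 to 4.55, that of Cxcl10 from 3.49 to 4.14, that of Cxcl13 from -4.52 to -4.13 and that of Cxcl2 from 0.96 to 0.99, always under 2-fold. The log2 ratio of the summed RPKM of the 10 ligands was -0.93, and it was -0.70 by the longest and -0.79 by the shortest coding transcript, both added after the data were seen. Left without Cxcl14, also added then, it turned to 0.35, because that gene alone made up most of the control sum. For the 4 ELR members the log2 ratio of the summed RPKM was 0.51, and it turned to -0.62 with Cxcl15 and Ppbp in the sum, an alternative added after the data were seen. With counts divided by 2, the interval of Cxcl3 ran from -0.85 to 4.85 and that of Cxcl5 from -0.62 to -0.08, and the other 8 also excluded 0. Among these, the interval of Cxcl9 ran from 3.23 to 6.52, that of Cxcl10 from 2.63 to 6.56 and that of Cxcl2 from 0.47 to 1.57. No paired analysis was possible because the groups share no second replicate number.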

Other observations

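The genes next to the ELR ligands on chromosome 5 include those of several EGF receptor ligands, and these were looked at after their values were seen. Areg, which encodes amphiregulin, a growth factor of the ductal epithelium, had 3126 counts in the control and 722 with TNF-α, a log2 ratio of -2.37 (95% counting interval -2.49 to -2.26). It lies 385 kb from the start of Cxcl5. Its neighbours Ereg, with 155 and 197 counts, and Epgn, with 63 and 81 counts, encode related ligands and had log2 ratios of 0.09 (-0.22 to 0.40) and 0.10 (-0.39 to 0.60). Btc, which encodes betacellulin, had 295 and 310 counts and a log2 ratio of -0.19 (-0.42 to 0.05). Areg and Cxcl15, with a log2 ratio of -2.55, had the lowest ratios of the 19 genes compared around that stretch. Each value is from 1 library per condition, without a replicate check.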
